A study of Homo sapiens with 8 samples.

Results

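The genes of the beta-tubulin family were targeted by 56 of the 10429 sgRNAs in a CRISPR/Cas9 screen for regulators of PRMT5, an arginine methyltransferase, in ovarian cancer cells. The members were taken by name, as all sgRNAs whose target gene began with TUBA, TUBB, TUBD, TUBE or TUBG. They covered 8 of the 1420 library genes with 7 sgRNAs each, namely *TUBB*, *TUBB1*, *TUBB2A*, *TUBB2B*, *TUBB3*, *TUBB4A*, *TUBB4B* and *TUBB6*. No library gene matched the names of the alpha-, gamma-, delta- or epsilon-tubulins. The screen used chemo-resistant COV362 cells, an established high-grade serous ovarian cancer line labelled wild type, which had been made to express Cas9 and then received the sgRNA library. The transduced cells were selected with puromycin, divided into replicate cultures and passaged before they were stained for PRMT5. The cells with the least PRMT5 (PRMT5lo, 4 libraries) and with the most (PRMT5hi, 4 libraries) were sorted from each culture, and sgRNAs were sequenced from their genomic DNA. Both populations came from the same transduced cells, and the analysis held no library of the cells at the start of culture.

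Microtubules are built from heterodimers of alpha- and beta-tubulin, and they form the mitotic spindle that separates chromosomes. Beta-tubulin is the target of taxanes and vinca alkaloids, drugs that disturb the spindle of dividing cells. Humans have several beta-tubulin genes whose proteins are very similar and differ mainly at the C-terminal tail. *TUBB* and *TUBB4B* are expressed in most tissues, whereas *TUBB1* is known from platelets and megakaryocytes, *TUBB3* and *TUBB4A* mainly from neurons and the brain, and *TUBB2A* and *TUBB2B* most of all from the nervous system. *TUBB6* is a more divergent member found in many tissues at low levels. On GRCh38 *TUBB2A* lies on chromosome 6 from 3153666 to 3157544 and *TUBB2B* on the same chromosome from 3224277 to 3227653, with 66732 bases between them, and *TUBB* is also on chromosome 6, from 30720352 to 30725422. *TUBB4B* lies on chromosome 9 from 137241287 to 137243707, *TUBB6* on chromosome 18 from 12307669 to 12329826, *TUBB3* on chromosome 16, *TUBB4A* on chromosome 19 and *TUBB1* on chromosome 20. Whether an sgRNA also cuts other members of this similar family was not tested, since sgRNA sequences were not part of the analysis.

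Abundance is given as CPM, read counts scaled to a common library total, in the authors' mean over the 4 libraries of a population. Enrichment is given as the log2 ratio, log2 of CPM + 1 in PRMT5lo over CPM + 1 in PRMT5hi, so that a positive value marks an sgRNA more abundant in PRMT5lo cells. Because 1 is added to both values, the ratio of scarce sgRNAs is drawn toward 0. Single libraries were not analysed here, and the variance that the authors estimated per sgRNA stands for the spread between them. Unless said otherwise, an adjusted p of an sgRNA is two-sided and adjusted over all 10429 sgRNAs, and an sgRNA passed when its p before adjustment was under 0.05. The recovered depth was 19117396 reads in PRMT5lo and 16166859 in PRMT5hi, so that 1 CPM stood for 19.1 reads in PRMT5lo and 16.2 reads in PRMT5hi over the 4 libraries. SDs given for a gene are over its 7 sgRNAs, which share a target and are not biological replicates.

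sgRNAs against *TUBB* were scarce in both populations. The mean of the 7 was 16.1 CPM in PRMT5lo and 19.0 CPM in PRMT5hi, against 133 CPM in PRMT5lo and 130 CPM in PRMT5hi for the 500 control sgRNAs. Abundance over both populations, the mean of log2(CPM + 1), was 3.58 for *TUBB* (SD 1.52 over sgRNAs) and 6.87 for the control sgRNAs (SD 0.75), a difference of -3.29 (95% interval -4.13 to -2.44), or 9.75-fold lower. Of the 1420 genes, *TUBB* ranked 4 from the lowest, behind *RRM1*, *HSD17B10* and *RRM2*. In a limma fit across all genes, whose p-values and intervals measure the spread over the sgRNAs of a gene and not that between cultures, the adjusted p was 4.5e-05. The median gene had an abundance of 6.39.

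The *TUBB* sgRNAs differed widely among themselves. TUBB_4 was the most abundant, with 45.3 CPM in PRMT5lo and 62.1 CPM in PRMT5hi. TUBB_5 followed with 29.0 CPM in PRMT5lo and 27.0 CPM in PRMT5hi. The other 5 were under 20 CPM in the mean of both populations, a share of sgRNAs per gene that only 5 genes of the library reached. TUBB_2 had 13.9 CPM in PRMT5lo and 12.4 CPM in PRMT5hi, TUBB_3 had 9.94 CPM in PRMT5lo and 12.6 CPM in PRMT5hi, and TUBB_6 had 10.8 CPM in PRMT5lo and 12.3 CPM in PRMT5hi. TUBB_1 stood at 2.02 CPM in PRMT5lo and 5.44 CPM in PRMT5hi, and TUBB_7 at 1.93 CPM in PRMT5lo and 0.958 CPM in PRMT5hi. TUBB_7 had the lowest abundance of all 56 sgRNAs and rested on an estimated 37.0 reads in PRMT5lo and 15.5 reads in PRMT5hi, summed over 4 libraries each.

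*TUBB4B*, the other broadly expressed member, had the next lowest abundance, 4.97 (SD 1.28), and ranked 32 of 1420 genes. Its mean was 39.3 CPM in PRMT5lo and 43.4 CPM in PRMT5hi, and it differed from the control sgRNAs by -1.90 log2 units (3.73-fold lower, 95% interval -2.66 to -1.14, limma adjusted p = 0.00196). Its sgRNAs also differed widely among themselves. TUBB4B_1 had 8.18 CPM in PRMT5lo and 8.27 CPM in PRMT5hi, and TUBB4B_3 had 13.1 CPM in PRMT5lo and 8.24 CPM in PRMT5hi. TUBB4B_2 had 27.0 CPM in PRMT5lo and 22.5 CPM in PRMT5hi, and TUBB4B_4 had 24.0 CPM in PRMT5lo and 34.8 CPM in PRMT5hi. TUBB4B_5, TUBB4B_6 and TUBB4B_7 ran between 51.9 and 90.5 CPM over both populations.

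*TUBB2A* was the remaining member whose sgRNAs were less abundant than the controls, with a difference of -1.07 log2 units (2.09-fold lower, 95% interval -1.62 to -0.51, limma adjusted p = 0.0111). Its sgRNAs ran from 28.9 to 108 CPM in PRMT5lo (median 56.0) and from 36.9 to 87.7 CPM in PRMT5hi (median 56.2), and none stood apart at the low end. By this measure over sgRNAs, 3 of 8 beta-tubulin genes were below the control mean in abundance, where 18.7% of all genes were. Control sgRNAs were abundant, with the means of 133 CPM in PRMT5lo and 130 CPM in PRMT5hi given above, where the median targeting sgRNA had 85.3 CPM over both populations. Against the median of the targeting sgRNAs, the limma adjusted p was 0.000436 for *TUBB* and 0.0327 for *TUBB4B*, and 0.278 for *TUBB2A*, which no longer passed.

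The other 5 genes lay higher. Abundance was 5.88 for *TUBB2B* (SD 1.17), 6.10 for *TUBB4A* (SD 0.70), 6.11 for *TUBB1* (SD 0.59), 6.24 for *TUBB6* (SD 0.97) and 6.43 for *TUBB3* (SD 0.39), with limma adjusted p-values from 0.0532 to 0.208 against the controls. Neighbours in the order of abundance differed by less than the larger of their SDs over sgRNAs. The step between *TUBB4B* and *TUBB* was 1.39 log2 units and that between *TUBB2A* and *TUBB4B* was 0.83, and each later step was at most 0.22. The 95% intervals of *TUBB* and *TUBB4B* overlapped, while that of *TUBB* overlapped with no other beta-tubulin gene. Within *TUBB2B*, TUBB2B_4 stood lowest with 9.40 CPM in PRMT5lo and 14.4 CPM in PRMT5hi, whereas its other sgRNAs ran from 31.4 to 123 CPM. In all, 8 of the 56 beta-tubulin sgRNAs (14.3%) were under 20 CPM, 5 against *TUBB*, 2 against *TUBB4B* and TUBB2B_4, as were 3.38% of all targeting sgRNAs. Whether an sgRNA was scarce in the library or was lost as the cells grew cannot be told apart in these samples.

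Among genes that act with microtubules, most spindle genes were also targeted by sgRNAs of low abundance. Of 9 genes of the mitotic spindle (the Aurora kinases, *PLK1*, *PLK4*, *TTK*, *NEK2*, the kinesin *KIF11* and *CIT*), 7 were below the control sgRNAs at a limma adjusted p under 0.05, where 18.7% of all genes were. The median abundance was 5.20 over the 9 genes, 5.99 over the 8 beta-tubulin genes and 6.39 over all genes. *PLK1*, a kinase needed for spindle assembly and mitotic progression, stood at 3.90 and ranked 6. *KIF11*, the motor that pushes spindle poles apart, stood at 4.97 and ranked 33, next to *TUBB4B*. Of 10 genes of proteins that bind or modify microtubules (tau, the MARK, TAOK and DCLK kinases and the deacetylase HDAC6), 2 were below the controls, *MARK2* and *HDAC6*, a share near the 18.7% of all genes, and the median of 6.39 was that of all genes.

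Between the sorted populations, *TUBB2B* was the only beta-tubulin gene past the thresholds set for genes, which asked for a mean log2 ratio above 0.25 or below -0.25 together with a p in that direction of less than 0.01. All 7 of its sgRNAs were less abundant in PRMT5lo than in PRMT5hi cells, as for 17 (1.2%) of the 1420 genes. Over these sgRNAs the log2 ratio averaged -0.33 (SD 0.24, 95% limma interval -0.53 to -0.12), a 1.26-fold higher CPM + 1 in PRMT5hi cells. The 500 control sgRNAs averaged 0.02 (SD 0.25). Fisher's method combined the sgRNAs to p = 0.00108 toward PRMT5hi (adjusted p = 0.118 over all genes), so the gene did not pass adjustment. Toward PRMT5hi 1 of 8 beta-tubulin genes was called, against 0.845% of all genes, and toward PRMT5lo none, against 0.704%.

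Ratios of the *TUBB2B* sgRNAs differed in size and not in sign, with an SD (0.24) near that of the control sgRNAs (0.25). TUBB2B_6 had the largest ratio, -0.67, with 31.4 CPM in PRMT5lo and 50.6 CPM in PRMT5hi, and passed before adjustment only (adjusted p = 0.460). Its variance in PRMT5hi was the smallest possible, that of read counting alone. The least abundant, TUBB2B_4, had -0.57, on an estimated 180 reads in PRMT5lo and 234 reads in PRMT5hi, and did not pass (adjusted p = 0.912). TUBB2B_7, with 87.5 CPM in PRMT5lo and 123 CPM in PRMT5hi, had a ratio of -0.49 and did not pass either (adjusted p = 0.910). In the test of each sgRNA, p before adjustment was 0.226 for TUBB2B_4 and 0.210 for TUBB2B_7. TUBB2B_3 had 80.4 CPM in PRMT5lo and 93.9 CPM in PRMT5hi, and TUBB2B_2 had 110 CPM in PRMT5lo and 123 CPM in PRMT5hi, with ratios of -0.22 and -0.16. Both were at the smallest variance in PRMT5lo and did not pass. TUBB2B_5 had a ratio of only -0.12, 102 CPM in PRMT5lo and 110 CPM in PRMT5hi, yet passed before adjustment (adjusted p = 0.585), and its variance in both populations was the smallest possible, that of read counting alone. TUBB2B_1 had the smallest ratio, -0.07, with 38.9 CPM in PRMT5lo and 40.9 CPM in PRMT5hi. With TUBB2B_6 left out, the gene no longer passed (mean -0.27, p = 0.0133 by Fisher's method), and with each of the other 6 left out it did, at means from -0.37 to -0.29. With the median over sgRNAs in place of the mean the ratio was -0.22, under the limit, and with variances taken from 20 abundance bins, an alternative chosen after the data were seen, Fisher's method gave 0.0120. In the test of each sgRNA with these bin variances, p before adjustment was 0.0855 for TUBB2B_6 and 0.498 for TUBB2B_5.

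The sgRNAs against the neighbouring *TUBB2A* lay on both sides of 0. The mean log2 ratio was -0.02 (SD 0.28), with 4 of 7 sgRNAs more abundant in PRMT5lo and 3 in PRMT5hi. TUBB2A_4 had 108 CPM in PRMT5lo and 87.7 CPM in PRMT5hi, a ratio of 0.30 (adjusted p = 0.626), while TUBB2A_7 had 43.5 CPM in PRMT5lo and 56.2 CPM in PRMT5hi, a ratio of -0.36 (adjusted p = 0.722). These sgRNAs of the same gene passed in opposite directions before adjustment. The 95% limma interval of *TUBB2A*, -0.23 to 0.20, overlapped with that of *TUBB2B*, and the difference between the genes was not tested.

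*TUBB6* held the sgRNA with the smallest p of the whole library. TUBB6_5 had 115 CPM in PRMT5lo and 59.3 CPM in PRMT5hi, a log2 ratio of 0.94 or 1.92-fold more in PRMT5lo cells, on 2177 reads in PRMT5lo and 949 reads in PRMT5hi. It passed adjustment over the library (adjusted p = 0.0356), as 5 sgRNAs (0.0479%) did. By size of ratio it was less exceptional, as 1 of 38 sgRNAs among the 10429 with a ratio at least that large. The variance of TUBB6_5 was the smallest possible in both populations, as for 262 sgRNAs of the library (2.51%), of which 58.8% passed before adjustment. With variances from the abundance bins TUBB6_5 did not pass adjustment (adjusted p = 0.869).

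The other 6 *TUBB6* sgRNAs had smaller ratios, in both directions. TUBB6_3 had 105 CPM in PRMT5lo and 92.5 CPM in PRMT5hi, a ratio of 0.19 (adjusted p = 0.525, again at the smallest variance in both populations). TUBB6_2, the most abundant of the 56 with 225 CPM in PRMT5lo and 218 CPM in PRMT5hi, had a ratio of 0.05. TUBB6_7 and TUBB6_4 leaned toward PRMT5hi with ratios of -0.35 and -0.33, and TUBB6_1 and TUBB6_6 lay at -0.07 and 0.04. The gene's mean was 0.07 (SD 0.43), far under the limit of 0.25, although the p by Fisher's method toward PRMT5lo was 5.1e-05 (adjusted p = 0.0363), and 2 genes of the library (0.141%) passed such adjustment. Without TUBB6_5 the mean was -0.08 and Fisher's method gave 0.121.

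The remaining 5 genes showed no lean that passed the thresholds. The mean log2 ratio was -0.17 for *TUBB* (SD 0.53), -0.08 for *TUBB4A* (SD 0.31), -0.02 for *TUBB4B* (SD 0.40), 0.01 for *TUBB3* (SD 0.23) and 0.05 for *TUBB1* (SD 0.29), and the SD exceeded the mean in every one. The *TUBB* sgRNAs spanned ratios from -1.09 for TUBB_1 to 0.58 for TUBB_7, which were its least abundant sgRNAs, and neither passed (adjusted p = 0.933 for TUBB_1 and adjusted p = 0.967 for TUBB_7). sgRNAs of this abundance were variable throughout the library, since the SD of the log2 ratio was 0.58 over targeting sgRNAs under 20 CPM and 0.28 over the others. TUBB_4, the most abundant *TUBB* sgRNA, had a ratio of -0.45 (adjusted p = 0.771). *TUBB4A* had its largest ratio in TUBB4A_2, -0.61, with 74.0 CPM in PRMT5lo and 113 CPM in PRMT5hi (adjusted p = 0.784). *TUBB4B* ran from -0.52 for TUBB4B_4 to 0.60 for TUBB4B_3, both from its less abundant sgRNAs.

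*TUBB3* was the most even member, in abundance as well as in ratio. Its sgRNAs ran from 54.3 to 116 CPM in PRMT5lo (median 92.6) and from 64.6 to 133 CPM in PRMT5hi (median 79.0), with ratios from -0.25 to 0.30. TUBB3_7, with 109 CPM in PRMT5lo and 95 CPM in PRMT5hi, was the one that passed before adjustment (ratio 0.20, adjusted p = 0.686). Of the *TUBB1* sgRNAs, TUBB1_1 had 78.5 CPM in PRMT5lo and 50.4 CPM in PRMT5hi, a ratio of 0.63, and passed before adjustment (adjusted p = 0.594). TUBB1_7 had 128 CPM in PRMT5lo and 141 CPM in PRMT5hi, a ratio of only -0.14 with a smaller adjusted p of 0.353, and its variance was the smallest possible in both populations.

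Over the whole family, 9 of 56 sgRNAs passed before adjustment, where 6.63% of all sgRNAs did. Of these 5 were toward PRMT5lo, against 3.3% of the library, and 4 toward PRMT5hi, against 3.33%. They belonged to *TUBB1*, *TUBB2A*, *TUBB2B* and *TUBB6* with 2 each and to *TUBB3* with 1, and none to *TUBB*, *TUBB4A* or *TUBB4B*. In 8 of the 9 the variance was the smallest possible in at least 1 population, as it was in 19 of the 56. Of all 10429 sgRNAs, 1837 had the smallest variance in PRMT5lo and 1258 in PRMT5hi, with 262 in both. All 56 ratios split into 24 above 0 and 32 below, and the median over the 8 gene means was -0.02, against -0.0033 over all genes. Of the spindle genes none passed the thresholds. *PLK1* (-0.40) and *KIF11* (-0.36) nevertheless had more negative mean ratios than the -0.33 of *TUBB2B*. Fisher's method toward PRMT5hi gave p = 0.0793 for *PLK1* and p = 0.200 for *KIF11*. *TTK* leaned the other way with 0.31, and the median over the 9 genes was 0.04. Of the genes that bind or modify microtubules 1 passed. It was *TAOK1*, a stress kinase that also phosphorylates microtubule-affinity kinases, with a mean of -0.32 toward PRMT5hi (Fisher's method, adjusted p = 0.0241). Its sgRNAs had an abundance of 7.03.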

How the data were processed

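The 8 libraries were analysed as the authors' summaries per sgRNA over the 4 libraries of each population. Reads were mapped by the authors to the library of sgRNA sequences and analysed with CB2. FastQC and hg38 are named in the submitters' processing notes, with no versions. The deposited CPM values are read counts scaled by the mapped reads of each library and averaged over libraries. The deposited fraction gives, with a variance, the proportion of a population's reads estimated for each sgRNA. The deposited log2 ratios, scores and p-values of sgRNAs and genes are the authors' own comparisons and were not used. The headers do not name the populations, and their columns were assigned from the study's legend of its enrichment plot. The study's methods text gives the log2 ratio the opposite sign, so the directions given here rest on this assignment.

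Each sgRNA was tested by the difference of fractions over its standard error, with a t distribution whose degrees of freedom follow from both variances, and Benjamini-Hochberg adjustment over 10429 sgRNAs. One-sided p-values were combined per gene by Fisher's method and adjusted over 1420 genes. Abundance was compared with the control mean, taken as fixed, by limma 3.58.1 in R 4.3.3 with sgRNAs as observations, adjusted over all genes. The cells were transduced once and then divided, so p-values of sgRNAs and those from Fisher's method cover at most variation among cultures that share 1 transduction. Those of limma, and its intervals, rest on the spread over sgRNAs alone. The depth was worked out from those sgRNAs whose variance was the smallest possible, 1837 in PRMT5lo and 1258 in PRMT5hi, whose read totals came out whole within 0.05 reads in 100% of cases. No molecular identifiers are described, so reads can be PCR copies and depth sets the counting error only. Gene positions were read from RefSeq (GRCh38.p14). In simulated data with 1420 genes, all sgRNAs of a raised gene were raised by the same 0.75 log2 units. Fisher's method at an adjusted p under 0.05, without the limit on the ratio, recovered 100% of these genes with 0 false calls. The limma fit recovered 100% of genes lowered by 2 log2 units with 3 false calls. The simulated ratio was larger than that of *TUBB2B*, and 1 spread between libraries was set for all sgRNAs. The simulation therefore does not give the error rate of the calls made here. Named genes are the beta-tubulins and, of 2 lists of spindle and microtubule-associated genes, those past the same thresholds. *PLK1*, *KIF11*, *TTK*, *NEK2* and the 3 genes below *TUBB* were named after their values were seen. Members and lists were chosen with earlier results of these data known. Alternatives were Stouffer's method, limma on the ratios, CPM + 5, a minimum of 20 CPM, centring on control sgRNAs, the median, adjusted p limits, other abundance references, a normal distribution, and leaving out each sgRNA. Variances from 20 abundance bins and leaving out sgRNAs at the smallest variance were added after the data were seen.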

Additional observations from a re-analysis of the deposited data

Results flagged for a closer look

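TUBB6_5 lay far from the other 6 sgRNAs against *TUBB6*, with a log2 ratio of 0.94 whose gap to the next sgRNA took 0.584 of the gene's whole range. sgRNAs are not samples, and chance gives such a gap in about 1 of 20 groups; over the library 6.97% of 1420 genes had an sgRNA this far from the others in log2 ratio. Of the 8 beta-tubulin genes, none had one in abundance, against 6.20% of all genes.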

How the results depend on the processing

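No paired analysis was possible because the columns hold means over the 4 libraries of a population and carry no replicate number, and for the same reason no library could be left out. The restriction to sgRNAs that match 1 tubulin gene was not run, since their sequences were not used. *TUBB2B* was the 1 beta-tubulin gene called with Stouffer's method, limma, CPM + 5, the 20 CPM minimum and control centring. All of these calls used p before adjustment. In the limma fit of the ratios the adjusted p of *TUBB2B* was 0.478. The number of beta-tubulin genes called was 0 with the median, with an adjusted p under 0.05, with variances from abundance bins and without sgRNAs at the smallest variance, and it ran from 0 to 1 with each of the 56 sgRNAs left out. The mean log2 ratio of *TUBB2B* does not depend on the variances and so stayed at -0.33 with those from abundance bins. It was -0.38 over the 3 sgRNAs left without those at the smallest variance. Over these 3, Fisher's method gave p = 0.103 toward PRMT5hi (adjusted p = 0.988). The number of sgRNAs past the threshold was 9, against 1 after adjustment (TUBB6_5), 1 without sgRNAs at the smallest variance (TUBB1_1), 3 with variances from abundance bins (TUBB1_1, TUBB6_5 and TUBB4A_2, which was not among the 9) and 12 with a normal distribution. The 3 genes below the controls in abundance became 5 in PRMT5lo alone and 5 with CPM + 5; leaving out each sgRNA gave 3 to 4. Mean log2 ratios moved by less than their SD over sgRNAs in the alternatives run, but that of *TUBB6*, whose SD includes TUBB6_5, turned to -0.34 over the 2 sgRNAs left without those at the smallest variance, and to -0.08 without TUBB6_5, against 0.07 over all 7. The means of *TUBB1*, *TUBB2A*, *TUBB3*, *TUBB4A* and *TUBB4B*, close to 0, also changed sign under at least 1 alternative.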
